A study of Homo sapiens with 18 samples.

Results

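The IER and PHLDA genes measured here are 7 genes, IER2, IER3, IER5, IER5L, PHLDA1, PHLDA2 and PHLDA3. They were taken from the gene count table by matching its Ensembl identifiers to these symbols, 1 row each, out of 58395 gene rows, and all 7 passed the filter on low counts, as did 16794 genes in total. RNA was sequenced from BxPC-3 cells, a single established pancreatic cancer cell line, grown in serum-containing RPMI medium and given 80 ng/ml of HGF, 100 ng/ml of MSP, or phosphate-buffered saline, called the vehicle. RNA was collected 1 h or 4 h later, with 3 libraries in each of the 6 groups. The 4 treated groups are HGF at 1 h, HGF at 4 h, MSP at 1 h and MSP at 4 h, and each is set against the vehicle group of its own time. The labels call the libraries triplicates and name no separate cultures. The p-values therefore reflect the variation among these samples alone, and that variation may be technical.

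HGF (hepatocyte growth factor) binds the receptor tyrosine kinase MET, and MSP (macrophage-stimulating protein) binds the related receptor RON. Both receptors can signal through the RAS-ERK and PI3K-AKT pathways, and ERK drives immediate-early genes, whose transcription starts within minutes without new protein synthesis. IER stands for immediate early response. IER2, IER5 and IER5L are related nuclear proteins with a shared amino-terminal domain that bind the phosphatase PP2A, and IER5 is known to bring PP2A to the heat shock factor HSF1. IER3, also called IEX-1, is unrelated to them in sequence, is a substrate of ERK and acts in cell survival. The PHLDA proteins are small proteins built around a pleckstrin homology-like domain, which binds membrane phosphoinositides. PHLDA1 (TDAG51) restrains receptor kinase signalling, PHLDA2 is the product of an imprinted gene that limits placental growth, and PHLDA3 is a p53 target that keeps AKT from the membrane.

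Promoter sequences of IER2, IER5, IER5L and PHLDA1 were in the RefSeq table used (GRCh38.p14), and those of IER3, PHLDA2 and PHLDA3 were not used here. The IER5 and IER5L promoters are shown because this pair of relatives shared an arrangement of motifs. Printed 5′ to 3′ are the 250 bases before each transcript start, IER5 at chr1:181088450-181088699 on the plus strand and IER5L at chr9:129178262-129178511 on the minus strand. Capitals mark ATTGG, which is CCAAT on the other strand, and GAACATTC, a match to GAANNTTC, the paired core of a heat shock element.
IER5: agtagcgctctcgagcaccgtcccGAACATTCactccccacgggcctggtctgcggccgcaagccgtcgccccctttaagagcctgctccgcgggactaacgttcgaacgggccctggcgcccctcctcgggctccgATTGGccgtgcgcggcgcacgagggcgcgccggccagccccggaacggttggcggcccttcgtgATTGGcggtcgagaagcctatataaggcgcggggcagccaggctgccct
IER5L: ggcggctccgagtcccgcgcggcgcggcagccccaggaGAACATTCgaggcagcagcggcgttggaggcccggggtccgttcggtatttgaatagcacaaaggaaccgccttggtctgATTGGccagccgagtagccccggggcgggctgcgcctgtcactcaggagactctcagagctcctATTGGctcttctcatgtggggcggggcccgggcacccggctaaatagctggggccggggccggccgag
In each promoter both CCAAT matches lay on the reverse strand, 64 bases apart, at -113 and -49 in IER5 and at -132 and -68 in IER5L, counted from the transcript start. The GAANNTTC match stood at -226 in IER5 and at -212 in IER5L. Of 35116 promoter windows of 300 bases (250 before and 50 after the start), 34.6% held CCAAT on either strand and 10.8% held it 2 or more times. GAANNTTC was in 6.77%, and 0.0513% held a CCAAT pair on the reverse strand at this spacing. Pairs on the forward strand were not counted for that share. These 2 motifs and the spacing were chosen after the sequences were seen. Both were searched on both strands and did not overlap each other.

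**Figure D1:**
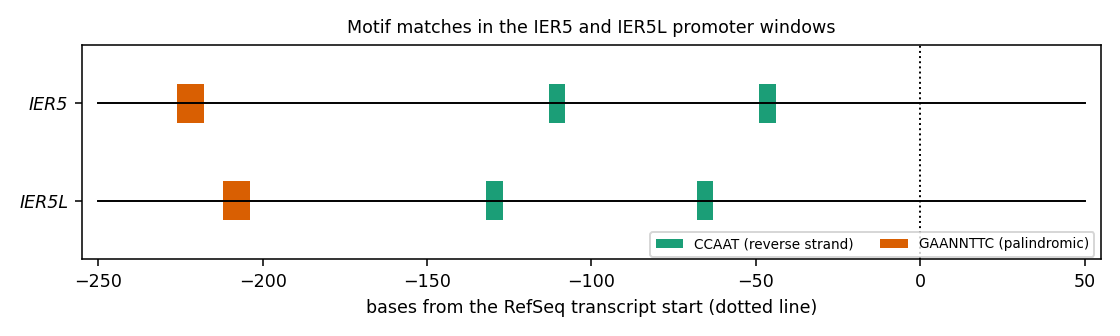
Motif matches in the IER5 and IER5L promoter windows, with distance in bases from the RefSeq transcript start on the horizontal axis; green bars are CCAAT on the reverse strand and orange bars GAANNTTC. In each gene the GAANNTTC match is farthest from the start and the CCAAT pair lies 64 bases apart.

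A set of motifs of factors known to act on immediate-early genes gave no match in the 4 windows available. It held the CArG box (in 1.29% of all windows), the CRE TGACGTCA (1.85%), the AP-1 site TGANTCA (7.71%), the EGR site GCGNGGGCG (9.43%), the ETS site CCGGAAGT (4.14%), the kappaB site (11.3%) and the TATA box TATAAA (11.5%), each on both strands. This says only that these exact letters are not within these 300 bases. Variant forms were not searched, such as the tatataagg near the end of the IER5 sequence above.

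Immediate-early transcripts often carry AU-rich elements, copies of ATTTA in the 3′ untranslated region that proteins such as ZFP36 bind and that speed decay. In the annotated transcript with the longest 3′ untranslated region (GENCODE 29, GRCh38), the longer form TATTTAT occurred 4 times in IER3, 4 times in IER5, 3 times in PHLDA1 and 1 time in PHLDA2, and it was not found in IER2, IER5L or PHLDA3. Of 12018 tested genes with at least 200 such bases, 37.3% held TATTTAT. IER3 had 6.64 copies of ATTTA per kb, a density above that of 97.2% of these genes, whereas IER2 had 0 copies in 1050 bases. One copy per gene, the copy nearest to the stop codon, is printed with its flanks as DNA letters and TATTTAT in capitals.
IER3: tcctaattaaTATTTATatgtatttat
IER5: cataataatgTATTTATagaattaaac
PHLDA1: agaagactttTATTTATgaacctttga
PHLDA2: aatatctatgTATTTATttcgctggtt
These matches are descriptions of letters and carry no measurement of decay.

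Library totals ranged from 30556613 to 48477215 counts, and the 7 genes had between 585 and 36918 counts in a library. Replicates differed beyond counting noise in each group, most among the MSP libraries at 1 h, where chi-square per degree of freedom was 7.23 to 20.3 against 3.04 to 5.77 in the other groups. The 10 markers of ductal epithelium were at 16.1 to 2517 CPM (counts per library, scaled to a common total) in every library. Acinar markers stayed at or below 0.721 CPM, with PNLIP at 0 counts throughout. Among 6 leukocyte and endothelial markers PTPRC and CD68 had at most 4 and 2 counts in a library. CD3E, CD14 and PECAM1 reached 57, 75 and 74 counts, and VWF 276 counts (0.854 to 6.6 CPM). At 4 h after HGF the summed level of 6 leukocyte and endothelial markers was 3.37 to 4.29 CPM against 8.54 to 9.84 in vehicle, that of 6 fibroblast markers 12.4 to 13.4 against 15.9 to 18.5, and the share of mitochondrially encoded transcripts 6.11 to 6.22% against 8.73 to 8.98%. At 1 h that share was 7.79 to 8.16% after HGF and 8.93 to 9.39% in vehicle, and after MSP at 4 h it was 8.36 to 8.42%. The leukocyte and endothelial sum 1 h after HGF was 7.78 to 9.12 CPM against 9.37 to 10.1. The ductal markers summed to 7846 to 8194 CPM after HGF against 7272 to 7412 at 1 h, and to 7787 to 8189 against 7477 to 7743 at 4 h. The part of these shifts in the results below was not tested.

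All levels that follow are CPM scaled by TMM factors unless a scale per kb is named. Log2 fold changes, with a standard error (SE), came from edgeR's quasi-likelihood test, and adjusted p-values are Benjamini-Hochberg values over the 16794 genes tested, with a threshold of 0.05. Each level is a bulk measurement, in which a change of RNA per cell and a change in the number of cells with the transcript cannot be told apart.

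Scaled per kb of annotated exon, PHLDA1 and IER3 were the most abundant members in vehicle cells at 1 h and IER5L the least. PHLDA1 stood at 51.2 ± 1.29 CPM per kb (SD, n = 3) and IER3 at 44.9 ± 1.75. PHLDA2 (24.0 ± 0.391), IER5 (24.0 ± 0.685) and PHLDA3 (21.9 ± 0.978) lay close together, above IER2 (19.2 ± 0.492) and IER5L (11.9 ± 0.694). After 1 h of HGF the order per kb was led by IER3 at 258 ± 9.02, PHLDA2 at 124 ± 7.29 and PHLDA1 at 100.4 ± 2.63, and after 4 h by PHLDA2 at 158 ± 2.16, PHLDA1 at 103 ± 4.28 and IER3 at 102 ± 5.77. Exon lengths came from GENCODE 29 and range from 0.95 kb (PHLDA2) to 8.07 kb (PHLDA1), so the scaling depends on which transcripts BxPC-3 cells use.

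**Figure D2:**
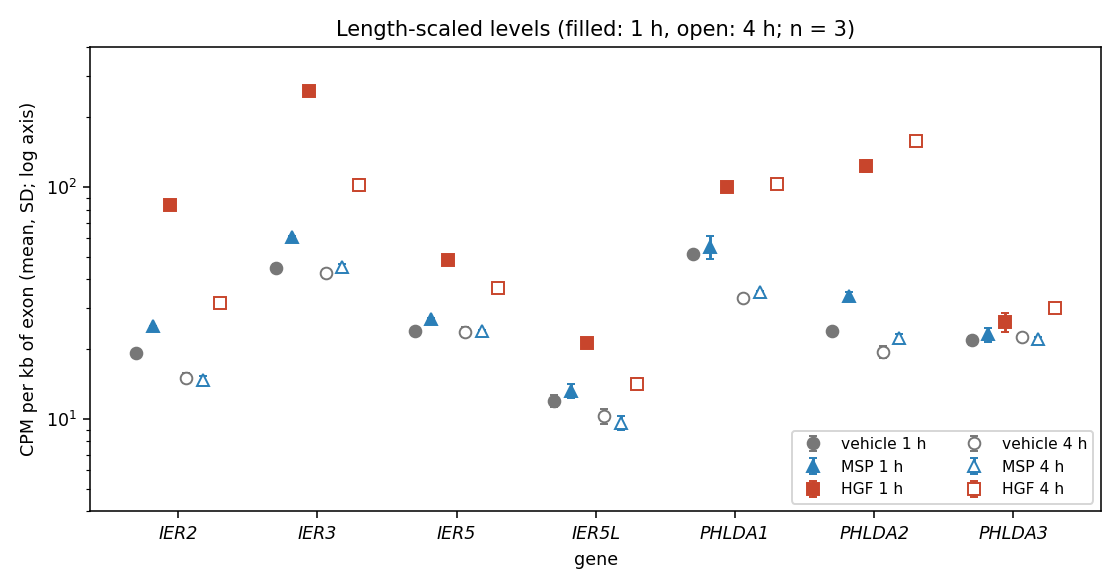
Mean level in CPM per kb of exon (log axis) with SD over 3 libraries for each gene; grey circles are vehicle, blue triangles MSP and red squares HGF, filled at 1 h and open at 4 h. IER3 is highest after 1 h of HGF at 258 and PHLDA2 after 4 h of HGF at 158, while IER5L is lowest in vehicle at 1 h with 11.9.

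IER2, IER3, IER5 and IER5L were each highest 1 h after HGF and lower, but still above vehicle, 4 h after HGF. IER3 and IER2 moved most, rising 5.75-fold and 4.35-fold at 1 h, while IER5 and IER5L rose 2.01-fold and 1.79-fold. At 4 h the rises were 2.41-fold for IER3, 2.1-fold for IER2, 1.55-fold for IER5 and 1.37-fold for IER5L.

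IER3 (ENSG00000137331, chromosome 6, 30743199 to 30744554 on the minus strand, GRCh38) was at 63.4, 60.5 and 58.7 CPM in the vehicle libraries at 1 h and at 360, 354.5 and 336.6 CPM after HGF. At 4 h it was at 59.3, 54.4 and 58.9 CPM in vehicle and 141, 130 and 145 CPM after HGF. The HGF libraries stood above every vehicle library at each time, and those at 1 h above those at 4 h. At 1 h the log2 fold change was 2.53 (SE 0.05, adjusted p = 1.75e-27), rank 73 from the highest of 16794 genes, and 1.27 (SE 0.05, adjusted p = 2.09e-20) at 4 h. Its antisense partner IER3-AS1 overlaps 359 exonic bases but had at most 13 counts.

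IER2 (ENSG00000160888, chromosome 19, 13150415 to 13154908 on the plus strand) was at 58.0, 60.6 and 58.0 CPM in vehicle at 1 h and at 248.5, 265 and 255 CPM after HGF. Its values at 4 h were 44.5, 48.9 and 45.5 CPM in vehicle and 94.1, 99.0 and 98.5 CPM after HGF. No HGF library overlapped a vehicle library, and the level at 4 h after HGF was 37.9% of that at 1 h (32.7% with library totals). At 1 h the log2 fold change was 2.12 (SE 0.04, adjusted p = 1.91e-26) and 1.07 (SE 0.05, adjusted p = 5.03e-19) at 4 h. An antisense gene overlaps 946 exonic bases of IER2 and had 2 to 35 counts.

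IER5 (ENSG00000162783, chromosome 1, 181088712 to 181092899 on the plus strand) had 102, 102 and 97.3 CPM in vehicle at 1 h and 204, 207 and 196 CPM after HGF, a log2 fold change of 1.01 (SE 0.04, adjusted p = 7.92e-19). At 4 h it had 95.3, 105 and 98.4 CPM in vehicle and 151, 158 and 153.5 CPM after HGF (0.63, SE 0.04, adjusted p = 2.3e-14). The groups did not overlap at either time, and IER5 kept more of its HGF level than IER2 or IER3 did, with 76.2% of the 1 h level at 4 h against 39.6% for IER3 (65.8% and 34.2% with library totals). Scaled by library totals instead, its rise at 4 h was 0.34 (adjusted p = 1.03e-08).

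IER5L (ENSG00000188483, chromosome 9, 129175552 to 129178262 on the minus strand) was the lowest of the IER genes. It was at 33.2, 33.7 and 30.2 CPM in vehicle at 1 h and at 60.1, 55.9 and 57.5 CPM after HGF (0.84, SE 0.06, adjusted p = 3.84e-12). At 4 h the values were 25.6, 29.2 and 29 CPM in vehicle and 40.3, 38.8 and 35.8 CPM after HGF (0.45, SE 0.07, adjusted p = 6.12e-07). The groups were separate at each time. With library totals the rise at 4 h was 0.16 (adjusted p = 0.0351), and the groups at 4 h overlapped (HGF 30.2 to 34.6 CPM, vehicle 26.5 to 30.3 CPM). Antisense genes overlap 696 and 367 exonic bases of IER5L and had at most 3 and 23 counts.

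PHLDA1 and PHLDA2 also rose 1 h after HGF, and against vehicle both stood further up at 4 h than at 1 h. PHLDA2 was at its highest level 4 h after HGF, also with library totals (128 ± 0.961 CPM at 4 h and 116 ± 7.15 at 1 h). PHLDA2 rose 5.14-fold at 1 h and 8.14-fold at 4 h, and PHLDA1 1.96-fold and 3.12-fold. PHLDA3 rose least, 1.19-fold at 1 h and 1.33-fold at 4 h.

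PHLDA2 (ENSG00000181649, chromosome 11, 2928273 to 2929455 on the minus strand) was at 22.6, 22.9 and 23.3 CPM in vehicle at 1 h and at 125.6, 112 and 116 CPM after HGF. At 4 h it was at 18.1, 19.9 and 17.8 CPM in vehicle and at 149.5, 153.6 and 150.8 CPM after HGF. Every HGF library at 4 h stood above every HGF library at 1 h. At 1 h the log2 fold change was 2.36 (SE 0.05, adjusted p = 4.97e-26) and 3.02 (SE 0.06, adjusted p = 8.66e-28) at 4 h, rank 87 and rank 79 from the highest among the genes tested. PHLDA2 held the largest log2 fold change of the 7 genes at 4 h and the second largest at 1 h.

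PHLDA1 (ENSG00000139289, chromosome 12, 76025447 to 76033932 on the minus strand) had 425, 411 and 404 CPM in vehicle at 1 h and 794, 834 and 802 CPM after HGF (0.97, SE 0.05, adjusted p = 1.55e-14). At 4 h it had 270.3, 257 and 274 CPM in vehicle and 820, 808 and 873 CPM after HGF (1.64, SE 0.06, adjusted p = 2.06e-20). The vehicle libraries at 4 h were all below those at 1 h, at 64.6% of the 1 h mean, or 63.6% with library totals. How the HGF level moved between the times depended on the scaling. With TMM factors the HGF libraries of both times overlapped and the mean at 4 h was 103% of that at 1 h, whereas with library totals each library at 4 h (680 to 737 CPM) was below each at 1 h (782 to 817 CPM) and the mean was 88.8%. A pair of antisense genes overlaps its exons and had 4 to 41 counts, against at least 8652 for PHLDA1.

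PHLDA3 (ENSG00000174307, chromosome 1, 201464383 to 201469237 on the minus strand) was at 70.8, 65.2 and 70.2 CPM in vehicle at 1 h and 90.7, 77.4 and 78.3 CPM after HGF (0.26, SE 0.06, adjusted p = 0.000721). At 4 h it was at 69.9, 71.7 and 71.1 CPM in vehicle and 97.4, 95.5 and 90.6 CPM after HGF (0.41, SE 0.06, adjusted p = 1.2e-07). The groups did not overlap, but the gap at 1 h was small beside the spread of the HGF libraries (82.1 ± 7.44 CPM). Scaled by library totals it rose by 0.15 at 1 h (adjusted p = 0.0402), while at 4 h it stood at 0.12 and lost the call (adjusted p = 0.055). A gene on the same strand overlaps 598 exonic bases of PHLDA3 and had 0 counts in every library.

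**Figure D3:**
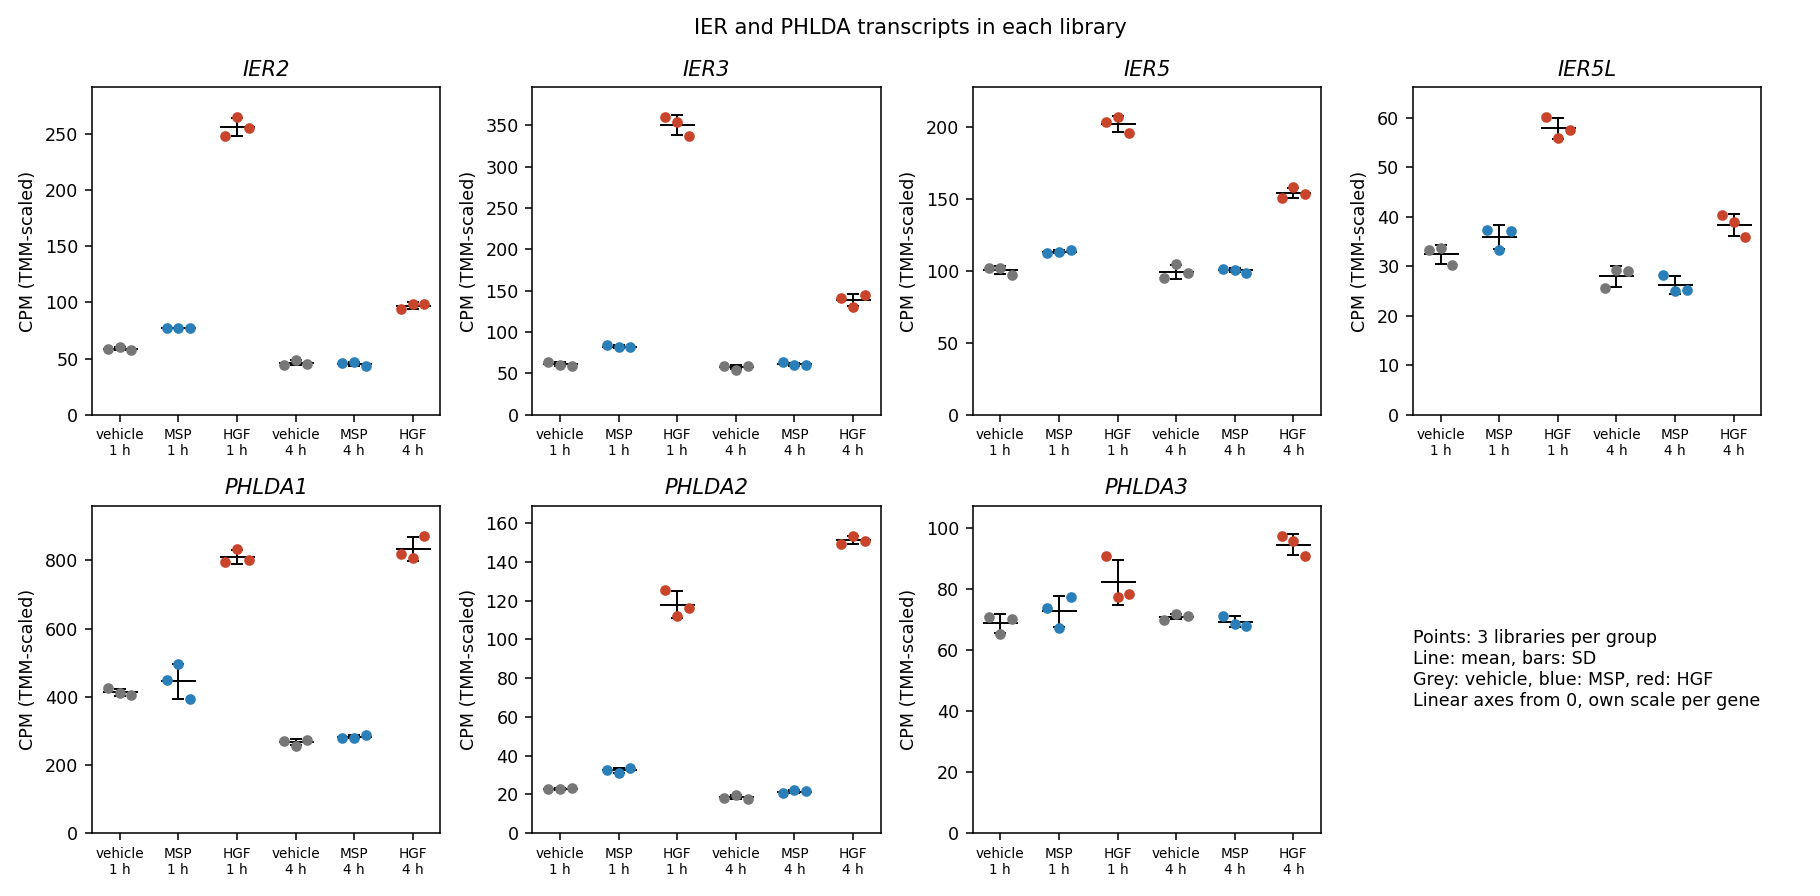
TMM-scaled CPM of the 7 genes in each library (points; grey vehicle, blue MSP, red HGF) with the mean and SD of the 3 libraries per group, on linear axes from 0. The IER genes peak 1 h after HGF (IER3 at 337 to 360 CPM), PHLDA2 peaks 4 h after HGF (149.5 to 153.6 CPM), and the PHLDA1 libraries of both HGF times overlap on this scale, but not with library totals, where those at 4 h are lower (680 to 737 against 782 to 817 CPM).

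At 1 h after HGF 7 of 7 genes were called higher, where 13.8% of all genes tested were, and in 7 of 7 the HGF and vehicle libraries did not overlap with HGF higher, where 20.1% of all genes did the same. At 4 h 7 of 7 were called higher against 33.1% of all genes, and 7 of 7 did not overlap against 34.5%. The median log2 fold change of the 7 genes was 1.01 at 1 h and 1.07 at 4 h, beside -0.004 and -0.06 over all genes tested. With library totals the median over all genes moved to -0.11 at 1 h and -0.35 at 4 h. The 7 genes were chosen with earlier results of these data known, so these contrasts describe them and do not test them.

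MSP raised 4 of the 7 genes at 1 h, PHLDA2, IER3, IER2 and IER5, where 0.78% of all genes were called higher. PHLDA2 rose 1.42-fold, IER3 1.35-fold, IER2 1.31-fold and IER5 1.13-fold. In the same 4 genes the MSP libraries lay above every vehicle library, which 7.12% of all genes did. The MSP and HGF comparisons at a time share their vehicle libraries.

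PHLDA2 was at 32.6, 31.2 and 33.6 CPM after MSP (log2 fold change 0.50, SE 0.05, adjusted p = 1.33e-07). IER3 had 83.9, 81.3 and 81.6 CPM (0.43, SE 0.05, adjusted p = 2.39e-07), and IER2 had 77.2, 76.9 and 77.3 CPM (0.39, SE 0.04, adjusted p = 6.01e-07). Each of these libraries stood above the highest vehicle library of its gene. IER5 was at 113, 113 and 115 CPM (0.17, SE 0.04, adjusted p = 0.0311). Its call was lost when only the 2 groups compared were fitted (adjusted p = 0.306) and when any 1 of their 6 libraries was left out (adjusted p = 0.0534 to 0.273, the highest without replicate 3 of vehicle).

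The other 3 genes did not pass at 1 h after MSP. IER5L stood at 37.4, 33.2 and 37.2 CPM, and its log2 fold change was 0.15 (95% interval 0.02 to 0.28, adjusted p = 0.555). PHLDA3 stood at 73.7, 67.0 and 77.2 CPM, with a log2 fold change of 0.08 (interval -0.03 to 0.19, adjusted p = 0.806). PHLDA1 had the widest spread of any gene and group here, with 449, 496 and 392 CPM (coefficient of variation 11.6%), and a log2 fold change of 0.11 (interval -0.003 to 0.22, adjusted p = 0.674). Without replicate 3 of MSP, PHLDA1 passed the test (0.19, adjusted p = 0.0296). The highest upper end of these 3 intervals was 0.28 on the log2 scale. They rest on 1 fit to all 18 libraries, not on the spread of the MSP group alone, and may be too narrow for PHLDA1.

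At 4 h after MSP 0 of 7 genes passed edgeR's test, 1 had an unadjusted p under 0.05, and DESeq2 called 0. Among all genes 0.774% were called higher. PHLDA2 was nearest, with 20.6, 22.1 and 21.6 CPM against 18.1, 19.9 and 17.8 in vehicle (0.20, interval 0.09 to 0.32, adjusted p = 0.0873). In 3 of 7 genes, PHLDA2, PHLDA1 and IER3, each MSP library lay above each vehicle library, which 9.85% of all genes did. PHLDA1 was at 281, 281 and 289 CPM and IER3 at 63.2, 59.6 and 60.5 CPM, and both had a log2 fold change of 0.09 (adjusted p = 0.586 and 0.505). IER2 (-0.04, interval -0.13 to 0.06), IER5 (0.01, interval -0.07 to 0.10), IER5L (-0.09, interval -0.23 to 0.04) and PHLDA3 (-0.04, interval -0.15 to 0.08) had overlapping groups.

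**Figure D4:**
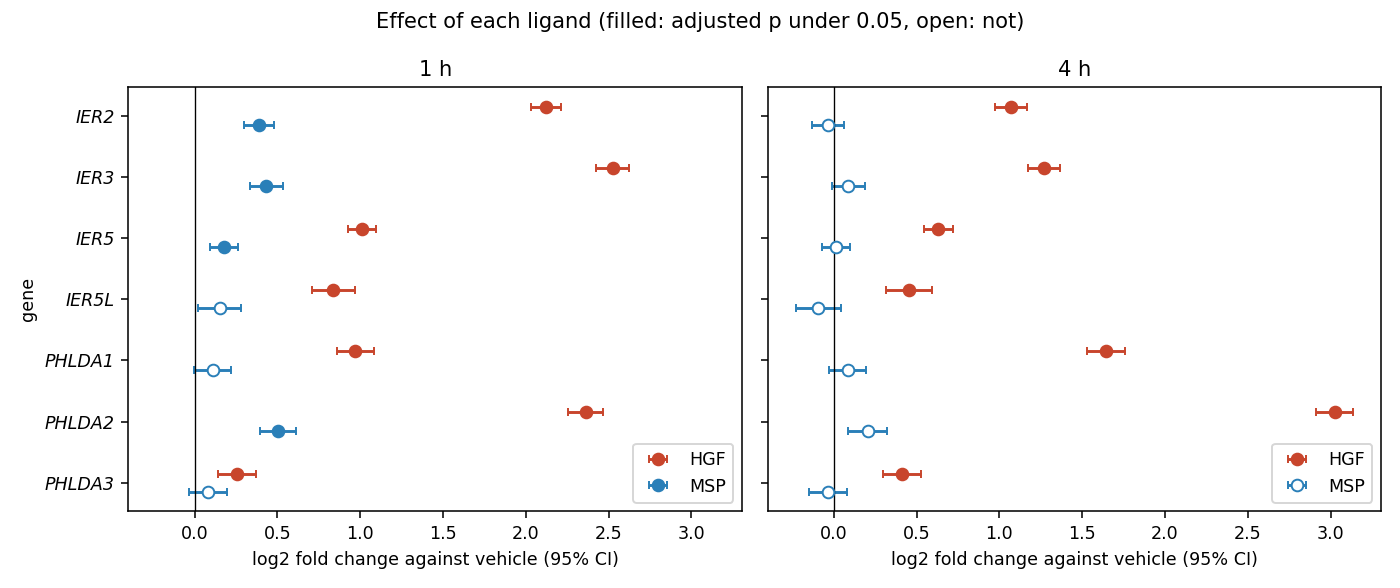
Log2 fold change against vehicle with its 95% interval for each gene at 1 h and 4 h, HGF in red and MSP in blue; filled points passed an adjusted p of 0.05. Every HGF point lies to the right of its MSP point, and the MSP points at 4 h are all open, with PHLDA2 highest at 0.20.

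The direct comparison of the ligands, given at their different doses, placed 7 of 7 genes higher after HGF than after MSP at 1 h, where 11.4% of all genes were higher, and 7 of 7 at 4 h, where 32.7% were. At 1 h the difference on the log2 scale was 2.09 for IER3 (SE 0.05, adjusted p = 1.96e-25), 1.86 for PHLDA2, 1.73 for IER2, 0.86 for PHLDA1, 0.83 for IER5 and 0.69 for IER5L. At 4 h PHLDA2 led with 2.82 (SE 0.05, adjusted p = 3.16e-27), followed by PHLDA1 at 1.56, IER3 at 1.18 and IER2 at 1.1. IER5, IER5L and PHLDA3 differed by 0.62, 0.55 and 0.45 at 4 h, and with library totals by 0.32, 0.25 and 0.15 (adjusted p = 3.35e-08, 0.00197 and 0.02). PHLDA3 at 1 h was the weakest, at 0.18 (SE 0.06, adjusted p = 0.0235). That call was lost with library totals (0.08, adjusted p = 0.312), with only the 2 groups fitted (adjusted p = 0.15), without HGF replicate 1 (adjusted p = 0.273) and without MSP replicate 2 (adjusted p = 0.152).

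The HGF effect changed between 1 h and 4 h in opposite directions in the IER genes and in PHLDA1 and PHLDA2. By the interaction of HGF with time, which compares the log2 fold change at 4 h with that at 1 h, 4 of 7 genes were called lower, where 26.4% of all genes were, and 2 of 7 were called higher, where 26.8% were. IER3 fell by 1.25 (SE 0.07, adjusted p = 4.54e-16), IER2 fell by 1.05 (SE 0.06, adjusted p = 8.38e-15), IER5L fell by 0.38 (SE 0.09, adjusted p = 0.000778) and IER5 fell by 0.38 (SE 0.06, adjusted p = 2.59e-06). PHLDA1 had an interaction of 0.67 (SE 0.08, adjusted p = 1.77e-08) and PHLDA2 one of 0.66 (SE 0.07, adjusted p = 5.97e-09). These 6 signs and calls held with library totals (-1.44, -1.24, -0.57, -0.57, 0.48 and 0.47 in the same order). PHLDA3 did not pass (0.16, interval -0.002 to 0.32, adjusted p = 0.0917). It passed with RLE factors (adjusted p = 0.0369), without a filter on low counts (0.0237), with DESeq2 (0.0459), without vehicle replicate 2 at 1 h (0.0424) and without HGF replicate 1 at 1 h (0.00863), and was at -0.03 with library totals.

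**Figure D5:**
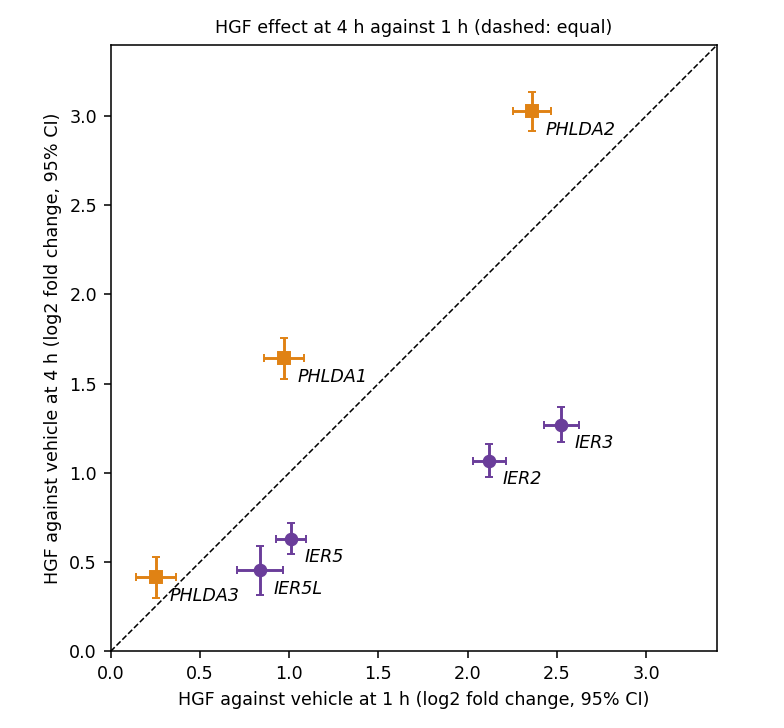
Log2 fold change of HGF against vehicle at 4 h (vertical) against that at 1 h (horizontal), with 95% intervals; purple circles are IER genes, orange squares PHLDA genes, and the dashed line marks equal effects. The 4 IER genes lie below the line, PHLDA1 and PHLDA2 lie above it, and PHLDA3 lies near it (0.26 at 1 h and 0.41 at 4 h).

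The MSP effect was smaller at 4 h than at 1 h in 2 of 7 genes by the same kind of test, where 0.274% of all genes were called lower. IER2 fell by 0.42 (SE 0.06, adjusted p = 0.000239) and IER3 fell by 0.35 (SE 0.07, adjusted p = 0.00893). Without vehicle replicate 3 at 1 h the value for IER3 was -0.32 (adjusted p = 0.0543), and the count was 1. PHLDA2 (-0.30, adjusted p = 0.113), IER5L (-0.24, adjusted p = 0.434), IER5 (-0.16, adjusted p = 0.403), PHLDA3 (-0.12, adjusted p = 0.826) and PHLDA1 (-0.02, adjusted p = 0.987) did not pass.

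Vehicle cells themselves differed between the times. In 4 of 7 genes the level was lower at 4 h than at 1 h, where 9.99% of all genes were called lower. PHLDA1 fell by 0.63 (SE 0.06, adjusted p = 4.73e-09), IER2 fell by 0.35 (SE 0.05, adjusted p = 3.78e-06), PHLDA2 fell by 0.30 (SE 0.06, adjusted p = 0.000345) and IER5L fell by 0.21 (SE 0.07, adjusted p = 0.0219). The IER5L call was lost without vehicle replicate 1 (adjusted p = 0.0755) or 2 (0.0993) at 1 h or vehicle replicate 1 at 4 h (0.162). IER3 (-0.08, adjusted p = 0.256), IER5 (-0.02, adjusted p = 0.844) and PHLDA3 (0.04, adjusted p = 0.626) did not pass.

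The order of levels across times depended in part on the scaling. Ordered by mean TMM-scaled level, IER2 went from HGF at 1 h (256 ± 8.35 CPM) through HGF at 4 h (97.2 ± 2.70), MSP at 1 h (77.1 ± 0.210) and vehicle at 1 h (58.9 ± 1.51), with separate libraries at each step, to vehicle and MSP at 4 h (46.3 ± 2.27 and 45.2 ± 1.88), which overlapped. With library totals HGF at 4 h (80.9 to 83.3 CPM) and MSP at 1 h (80.2 to 81.4 CPM) overlapped too. IER3 and IER5 shared the leading order of HGF at 1 h, HGF at 4 h and MSP at 1 h, and their other 3 groups each overlapped the next. IER3 in MSP at 4 h lay above vehicle at 4 h without overlap on both scales. With TMM factors it was at 59.6 to 63.2 against 54.4 to 59.3 CPM. With library totals it was at 61.5 to 66.2 against 56.5 to 61.4 CPM. On that scale the mean of IER3 in vehicle at 1 h (64.2 CPM) passed that in MSP at 4 h (63.8 CPM). For IER5L, HGF at 4 h (38.3 ± 2.29 CPM) overlapped MSP at 1 h (35.9 ± 2.35), which overlapped vehicle at 1 h (32.4 ± 1.88). With library totals its place turned, HGF at 4 h (32.5 ± 2.21) then lying below MSP (37.7 ± 2.66) and vehicle at 1 h (34.1 ± 1.71) in mean. PHLDA2 had the same order and no overlap at any step on either scale, from HGF at 4 h (151 ± 2.07) and 1 h (118 ± 6.96) through MSP at 1 h (32.5 ± 1.19), vehicle at 1 h (22.9 ± 0.374) and MSP at 4 h (21.4 ± 0.738) to vehicle at 4 h (18.6 ± 1.17). For PHLDA1 the groups fell into the HGF pair, whose order turned with the scaling, a 1 h pair of MSP and vehicle that overlapped, and MSP above vehicle at 4 h without overlap. In PHLDA3 the HGF groups overlapped each other at the top, and the groups below MSP at 1 h (72.6 ± 5.15) overlapped each next one down to vehicle at 1 h (68.7 ± 3.07). With library totals HGF at 1 h had the highest mean of PHLDA3 (80.7 ± 7.48, against 80.2 ± 3.63 for HGF at 4 h), and each group overlapped the next.

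Across the 18 libraries the log2 levels of the 4 IER genes followed one another (Pearson r 0.924 to 0.985 between them), and PHLDA1 and PHLDA2 were at 0.954. Between an IER and a PHLDA gene r reached 0.923 (IER5 and PHLDA2), close to the lowest value among the IER genes. IER2 and PHLDA3 were the least alike pair at 0.574. These are descriptions over 6 groups of libraries, and they share the HGF effect. Among 10246 genes with a symbol and a mean of at least 5 CPM, the most like IER2 were CSRNP1 (0.997), KLF10 (0.994) and HBEGF (0.993). Closest to IER3 were SERTAD1 (0.993), AMOTL2 (0.992) and ZFP36 (0.992), and to IER5 TRIB1 (0.994), SNAI2 (0.993) and BCL10 (0.989). IER5L was nearest to IER2 (0.974), CSRNP1 (0.973) and ZBTB7A (0.971). PHLDA2 was closest to TNS4 (0.997), PLAUR (0.996) and LRRC8A (0.995), PHLDA1 to MIR22HG (0.990), KCTD10 (0.989) and ZNF800 (0.987), and PHLDA3 to EPS8L1 (0.969), POFUT2 (0.967) and CEBPB (0.966).

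The gene lists that follow are set beside the shares of all genes tested. They too were chosen with earlier results of these data known, so the contrasts are descriptions. For HGF 13.8% were called higher and 7.16% lower at 1 h, and 33.1% and 34.8% at 4 h. For vehicle at 4 h against 1 h the shares were 10.9% and 9.99%. For MSP 0.78% were called higher at 1 h and 0.774% at 4 h. With library totals 1523 of 16794 genes were called higher and 3590 lower for HGF at 1 h, and 3553 and 8732 at 4 h. Of 34 other immediate-early genes 34 were higher 1 h after HGF (median log2 fold change 2.87), and 24 of 34 were higher after MSP (median 0.57). Their median after HGF exceeded that of the 7 genes (1.01). EGR3 and EGR2, zinc finger factors, rose by 6.02 and 6.05 after HGF and by 1.59 and 1.5 after MSP. FOSB, an AP-1 subunit, rose by 4.50 after HGF and 0.97 after MSP, and DUSP5, a nuclear ERK phosphatase, by 3.23 and 0.72. At 4 h after HGF 25 of 34 were higher and 2 lower (median 1.31), or 24 and 6 with library totals. DUSP5 stood at 2.39, RHOB, a small GTPase, at 2.4, TRIB1, a pseudokinase, at 2.31 and JUN, an AP-1 subunit, at 1.84, while BTG2 fell by 1.17. After MSP at 4 h 3 of 34 were higher, DUSP5, FOSL1 and MAFF (0.26, 0.47 and 0.25). The HGF effect was lower at 4 h than at 1 h in 30 of the 34 and higher in 3, where 26.4% and 26.8% of all genes were. In vehicle 22 of 34 were lower at 4 h.

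IER3, IER5 and PHLDA3 are also known as p53 targets. Of 16 other p53 targets 6 were higher and 3 lower 1 h after HGF (median 0.11), or 6 and 6 with library totals. CDKN1A, the p21 cell cycle inhibitor, rose by 2.23 and GDF15, a secreted stress cytokine, by 2.61. PLK3, a stress-responsive kinase, rose by 1.47 and TNFRSF10B, a death receptor, by 0.81, while SESN2 fell by 0.81. At 4 h 5 were higher and 9 lower (median -0.26), where 33.1% and 34.8% of all genes were, or 4 and 10 with library totals (median -0.55). CDKN1A stood at 1.76, TNFRSF10B at 1.25, DDB2 at -1.15 and SESN1 at -1.78. After MSP at 1 h 3 of 16 were higher, GDF15 (0.73), CDKN1A (0.40) and PLK3 (0.34). At 4 h after MSP edgeR's test and DESeq2 each called 0 of 16, and 4 had an unadjusted p under 0.05.

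Of 13 HSF1 targets, the heat shock genes on which IER5 bears, 7 were higher 1 h after HGF (median 0.17), or 4 higher and 1 lower with library totals (median 0.07). At 4 h 9 were higher and 2 lower (median 0.50), where 33.1% and 34.8% of all genes were, or 7 and 4 with library totals (median 0.21). At 1 h DNAJB1, a co-chaperone, rose by 1.15, HSPA8, the constitutive HSP70, by 0.60, DNAJA1 by 0.52 and BAG3 by 0.30. At 4 h HSPA8 rose by 1.97, HSPH1 by 1.59, DNAJA1 by 0.93 and HSP90AB1 by 0.88. HSPA1B fell by 0.26 and HSPB1 by 0.16 at 4 h, and HSPA1A (0.01, adjusted p = 0.823) and BAG3 (-0.065, adjusted p = 0.131) did not pass. MSP raised 1 of 13 at 1 h (DNAJB1, 0.20) and 1 at 4 h (HSPA8, 0.20). In vehicle 10 of 13 were higher at 4 h than at 1 h, where 10.9% of all genes were.

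Among 10 tested PP2A subunits, the partners of IER proteins, 5 were higher 1 h after HGF with a median of 0.12 (4 higher and 2 lower, median 0.02, with library totals). At 4 h 7 were higher and 3 lower with a median of 0.34, or 4 and 3 with a median of 0.05 with library totals. PPP2R5B rose by 0.59 at 1 h and 1.69 at 4 h, PPP2CB, a catalytic subunit, by 0.26 and 1.01, PPP2R2A by 0.31 and 0.78, and PPP2R1B by 0.24 and 0.72. At 4 h PPP2R5D fell by 0.52, PPP2R5A by 0.25 and PPP2R5C by 0.20. PPP2CA was on the list too but was not among the genes tested. After MSP edgeR called 0 of 10 at each time, DESeq2 called 0, and 0 had an unadjusted p under 0.05. Of 16 genes that make, remove or read PIP3, the lipid for which PHLDA3 competes with AKT, HGF left 2 higher and 1 lower at 1 h, and 6 higher and 4 lower at 4 h. These counts are near what the shares of all genes give (13.8% higher and 7.16% lower at 1 h, 33.1% and 34.8% at 4 h). The medians were 0.05 and -0.005. With library totals the counts became 1 and 6 (median -0.05), and 4 and 11 (median -0.30). That scaling moved the calls of all genes toward lower too, with medians of -0.11 at 1 h and -0.35 at 4 h. INPPL1, a PIP3 phosphatase, rose by 0.48 and PDPK1, a kinase that activates AKT, by 0.21 at 1 h, and PIK3CD, a catalytic subunit of PI3-kinase, rose by 1.03 and AKT1 by 0.44 at 4 h. PIK3IP1, an inhibitor of PI3-kinase, fell by 0.91 at 1 h and by 3.65 at 4 h after HGF, and by 0.41 at 4 h after MSP, and PIK3R3, a regulatory subunit, fell by 1.88 at 4 h after HGF and by 0.31 after MSP. At 1 h after MSP edgeR and DESeq2 called 0 of 16, and 1 had an unadjusted p under 0.05.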

How the data were processed

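RNA sequencing of 18 BxPC-3 libraries (6 groups of 3) was used as deposited by the authors, as whole-number counts per Ensembl gene. The submitters' processing notes name STAR, featureCounts and Subread. Build, annotation and strand setting were not given in the sources used here. For that reason genes that overlap a member are given with their counts. How reads within the overlaps were assigned is not known.

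Symbols came from a table of gene names, and coordinates, exon lengths and 3′ regions from GENCODE 29 (GRCh38). Genes were kept by filterByExpr (minimum count 10, minimum total 15), given TMM factors, and modelled in edgeR 4.0.16 (robust quasi-likelihood, 1 mean per group, 12 residual degrees of freedom, R 4.3.3), with Benjamini-Hochberg adjustment over 16794 genes. SE is the absolute log2 fold change divided by the square root of F. Log2 CPM used a prior count of 2. The procedure was tested on simulated counts in which a small set of genes was changed, in the HGF group at 1 h alone. Far more genes were called after HGF in the data, so the simulation does not cover the scaling there. Of 45 same-numbered library pairs in different groups 26 had deviations from the group means correlated above 0.1. All 3 pairs did for vehicle with MSP at 1 h (0.268, 0.118 and 0.224), HGF at 1 h with HGF at 4 h, HGF at 1 h with vehicle at 4 h, and vehicle at 1 h with MSP at 4 h, so the numbers may pair some groups. At least 1 pair did not in each other pair of groups.

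Named were the 7 genes, the 3 genes most like each, and up to 4 called genes per list with the smallest adjusted p. SESN2 and BTG2 were added after their values were seen. So were HSPA1A, HSPA1B, HSPB1 and BAG3 at 4 h, PPP2R5A, PPP2R5C and PPP2R5D. The alternatives tried were library totals, RLE factors, no filter, no robust estimation, only the groups compared, DESeq2 1.42.0, the replicate block and leaving out each library. Levels with library totals were added after the values were seen. The members and lists were chosen with earlier results of these data known.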

Additional observations from a re-analysis of the deposited data

Results flagged for a closer look

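The effect of HGF differed between 1 h and 4 h, by the interaction test over the 16794 genes, in 6 of the 7 genes. Such calls were common, with 26.4% of all genes called lower and 26.8% called higher in this test. The effect at 4 h minus that at 1 h, on the log2 scale, was -1.25 for IER3, -1.05 for IER2, -0.38 for IER5L and -0.38 for IER5, and it was 0.67 for PHLDA1 and 0.66 for PHLDA2. The effect of MSP differed between the times in IER2 (-0.42) and IER3 (-0.35), where 0.274% of all genes were called lower. PHLDA1 fell in vehicle cells between the times, to 64.6% of its level, and its level after HGF at 4 h was 103% of that at 1 h with TMM factors and 88.8% with library totals. PHLDA2 after HGF was higher at 4 h than at 1 h in every library on both scales, while its vehicle level fell.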

How the results depend on the processing

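Over the alternatives, 876 of 903 values of the 7 genes kept their sign and their side of the threshold, 16 lost and 6 gained the call, and 5 changed sign, none of them called. PHLDA3 in the HGF effect over time was at -0.03 with library totals. The other changes of sign came from leaving out single libraries, with ranges of -0.103 (without MSP replicate 3 at 1 h) to 0.065 (without MSP replicate 2 at 1 h) for PHLDA1 in the MSP effect over time, -0.063 to 0.004 for IER2 and -0.017 to 0.052 for IER5 in MSP against vehicle at 4 h, and -0.055 to 0.014 for IER5 in vehicle over time, where the ends of the last 3 ranges came without vehicle replicates 1 and 2 at 4 h. The count of called genes among the 7 for the MSP effect over time ranged from 1 to 2 when single libraries were left out. With the replicate block 4 of the 7 were called for MSP against vehicle at 1 h and 7 for HGF, and no call on the 7 genes changed in any comparison. For all genes, MSP against vehicle at 4 h gave 179 calls, but 354 without a filter, 402 with only the groups compared, 310 with DESeq2, and 16 and 20 without MSP replicate 2 or vehicle replicate 3. It gave 32 and 83 without vehicle replicate 2 or MSP replicate 3. At 1 h MSP gave 140, or 81 with only the groups compared. The MSP effect over time gave 54, or 148 without a filter and 102 with DESeq2, and vehicle over time 3513, or 2227 without vehicle replicate 1 at 4 h. With library totals the higher share of calls went from 65.8 to 29.8% for HGF at 1 h, from 48.7 to 28.9% at 4 h, from 64.1 to 29.4% and from 49.2 to 27% for HGF against MSP, from 50.3 to 32.9% for the HGF effect over time, and from 52.3 to 41.7% in vehicle over time. The cause was not tested. From the mean counts, counting error was 0.578 to 3.99% of the level, and in 7 of 42 pairs of gene and group the spread between replicates was below it. With 3 libraries such a small spread is itself poorly known.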
